A study of Mus musculus with 28 samples.

Results

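Neural stem cell lines derived outside the brain, termed peripheral neural stem cells (pNSCs), were compared with neural crest stem cells (NCSCs), both taken from mouse dorsal root ganglia (DRG), the clusters of sensory neurons and glia beside the spinal cord. The 6 libraries were chosen by their labels alone, 3 of Wnt1Cre-mTmG DRG pNSCs and 3 of DRG NCSCs, out of 28 in the series, and the measurement was the expression of every gene by sequencing of poly(A)-selected RNA. The DRG pNSCs came from unsorted ganglion cells of mice at about postnatal day 1 to 5 that carried Wnt1-Cre and the mTmG reporter, in which Cre driven by *Wnt1* switches neural crest progeny from membrane Tomato to membrane GFP. The cells had grown for about 3 weeks in serum-free medium with EGF and bFGF, and single Tomato+/GFP- clusters had been picked by hand. The NCSCs carried no reporter, and their cell type label reads NSC. The labels give the strain of both groups as C57BL/6, whereas the study's methods give the wild-type mice, to which the transgenic mice were bred, as CD1 or a CD1 and C3H mix, and the strain of these libraries was not settled here. The study's text gives the NCSCs as from adult wild-type mice, the labels give no age beyond the protocol's postnatal ganglia, and how they were isolated and in which medium they grew is not given in the sources used here. Age, genotype and any difference in culture therefore run along the groups and cannot be told apart from the cell type, and the ganglia are the same kind of tissue but not the same animals.

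The neural tube gives rise to the brain and spinal cord, and its stem cells depend on SoxB1 factors, Notch signalling and, in culture, EGF and FGF. The neural crest leaves the dorsal neural tube early and forms the sensory neurons, satellite glia and Schwann cells of the ganglia; its progenitors are marked by *Sox10*, *Foxd3* and the neurotrophin receptor p75 encoded by *Ngfr*. The comparison addresses whether stem cells from the ganglia with a neural stem cell (NSC) morphology differ from those of the crest lineage that populates the same tissue.

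The files held whole-number counts of reads per gene. Totals ran from 9808246 to 11431445 counts in the DRG pNSC libraries and from 17051461 to 21970406 in the NCSC libraries, and the detection floor used here, 3 counts in a library, came to 0.259 to 0.3 cpm (counts per 1000000) and to 0.142 to 0.181 cpm. Levels are given as cpm after TMM scaling and are not divided by gene length, so they compare libraries and not genes. Squared differences between the DRG pNSC replicates were 1.09 to 1.28 times what counting error gives, so these libraries differed little more than repeat sequencing of the same RNA would. Those between NCSC replicates 1 and 2 were 2.24 times, and those of NCSC replicate 3 to the other two were 17.2 and 21.5 times, so this library stands apart. Its transcripts of the mitochondrial genome summed to 10521 cpm against 18213 and 20077 cpm in the other NCSC libraries and 27024 to 27595 cpm in the DRG pNSC libraries. Because nothing in the labels ties the replicates to separate animals or cultures, p-values measure the spread between these libraries, which may be technical.

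Genes that mark other cells of a ganglion were present in the NCSC libraries. All 14 tested leukocyte markers were lower in DRG pNSCs, and the summed level of the whole list was 3.21 to 3.34 cpm in DRG pNSCs against 809 to 852 cpm in NCSCs. *Lyz2*, which encodes lysozyme of macrophages and neutrophils, stood at 524, 519 and 564 cpm in the 3 NCSC libraries and at 0, 0.10 and 0.0982 cpm in the 3 DRG pNSC libraries. The macrophage genes *Adgre1*, *C1qa* and *C1qb* were at 0 counts in every DRG pNSC library and at 40.7 ± 0.377, 33.7 ± 2.65 and 35.6 ± 3.13 cpm (s.d., n = 3) in NCSCs. The fibroblast and mesenchymal list summed to 38.4 to 41.7 cpm in DRG pNSCs and 7556 to 7730 cpm in NCSCs, with 14 of 16 tested members lower in DRG pNSCs. The endothelial and mural list differed less in sum, at 223 to 237 and 389 to 443 cpm, with 10 of 14 tested members lower and 3 higher. *Cdh5*, the cadherin of endothelial cells, was at 0.0862, 0 and 0.0982 cpm in DRG pNSCs and 24.8, 25.6 and 19.6 cpm in NCSCs. In bulk RNA, fewer cells of a type and less RNA per cell cannot be told apart, and the part of such cells in the results that follow was not tested.

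**Figure D1:**
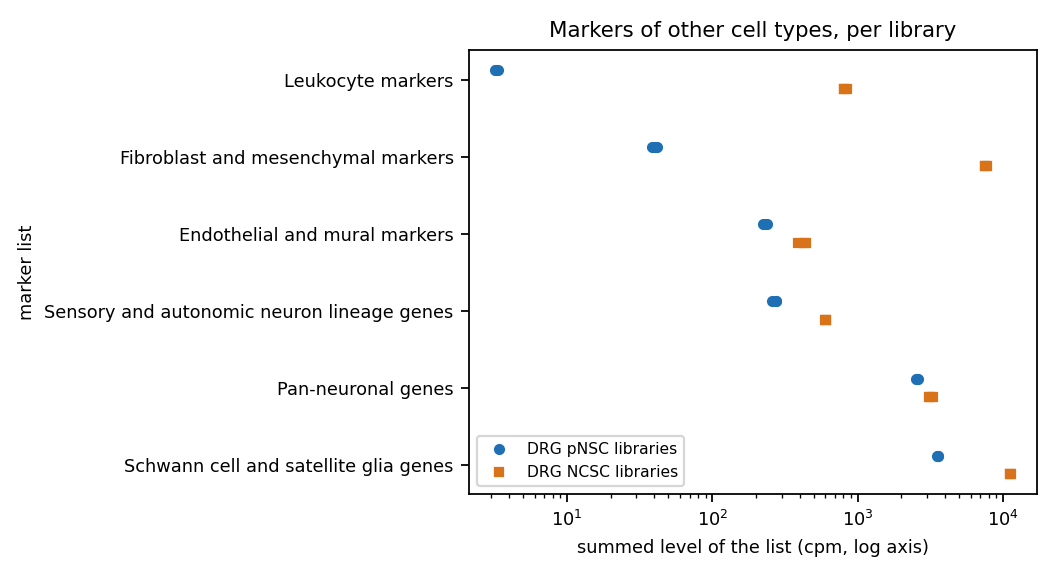
Summed level (cpm, log axis) of 6 marker lists in each of the 3 DRG pNSC libraries (circles) and 3 DRG NCSC libraries (squares). In every list the NCSC libraries lie above the DRG pNSC libraries, by the widest gap for leukocyte and fibroblast markers.

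Of 28244 genes in the table, 14448 passed the filter on low counts and were tested with edgeR's quasi-likelihood model. Genes were called at a Benjamini-Hochberg adjusted p under 0.05 where the log2 fold change was also 1 or more in size. In DRG pNSCs 2178 genes were higher (15.1% of those tested) and 3362 were lower (23.3%), 5540 in all (38.3%). The libraries of the 2 groups did not overlap for 11733 of the tested genes, and 5898 genes were higher and 6005 lower at the adjusted p alone. Among genes at 3 counts or fewer throughout a group, 215 tested genes were so in NCSCs and 960 in DRG pNSCs, whose libraries were the shallower. Without NCSC replicate 3 the call count was 5473, and no gene list described here gained or lost more than 1 call in either direction. Every gene named below as higher or lower passed both thresholds, with an adjusted p of at most 0.0038 (edgeR). Fold changes are written as DRG pNSCs minus NCSCs on the log2 scale, ± an approximate standard error. A value of this form in brackets after a gene is its log2 fold change. The error is the size of the fold change divided by the square root of the test's F statistic. Where a group holds few counts it can be smaller than counting error alone, so it overstates the precision of such fold changes.

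**Figure D2:**
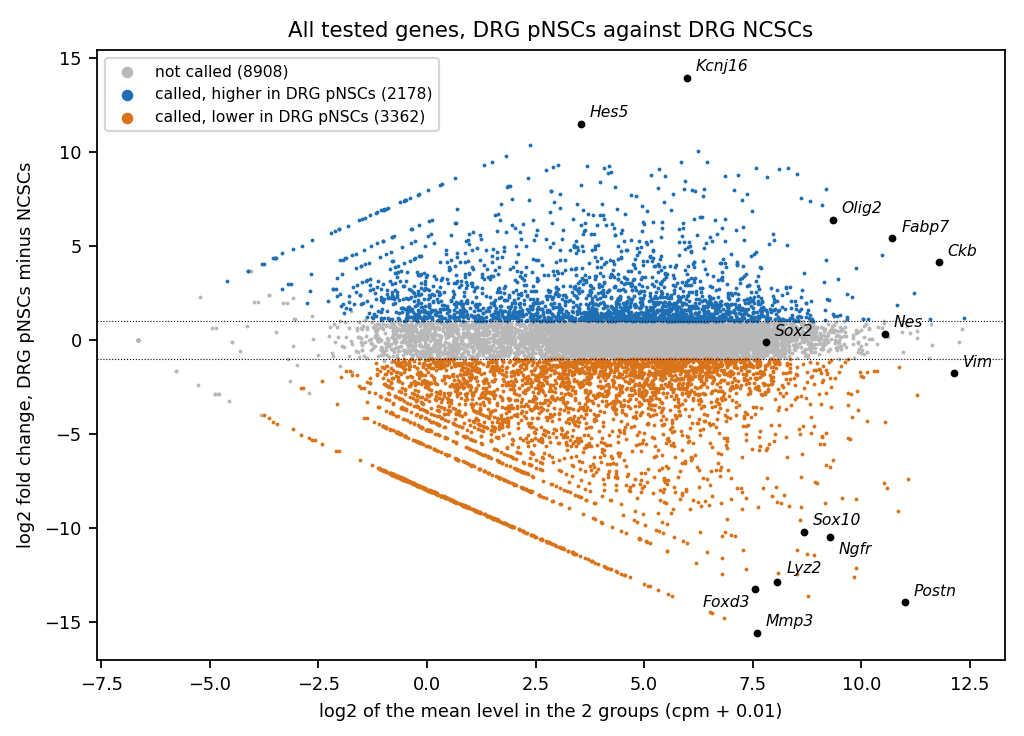
Log2 fold change of DRG pNSCs minus DRG NCSCs (y axis) against the log2 mean level of the 2 groups (x axis, cpm + 0.01) for the 14448 tested genes. Blue points are the 2178 genes called higher and orange points the 3362 called lower in DRG pNSCs; dotted lines mark a log2 fold change of 1 in each direction, and the slanted streaks are genes with 0 or a few counts in a group.

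**Figure D3:**
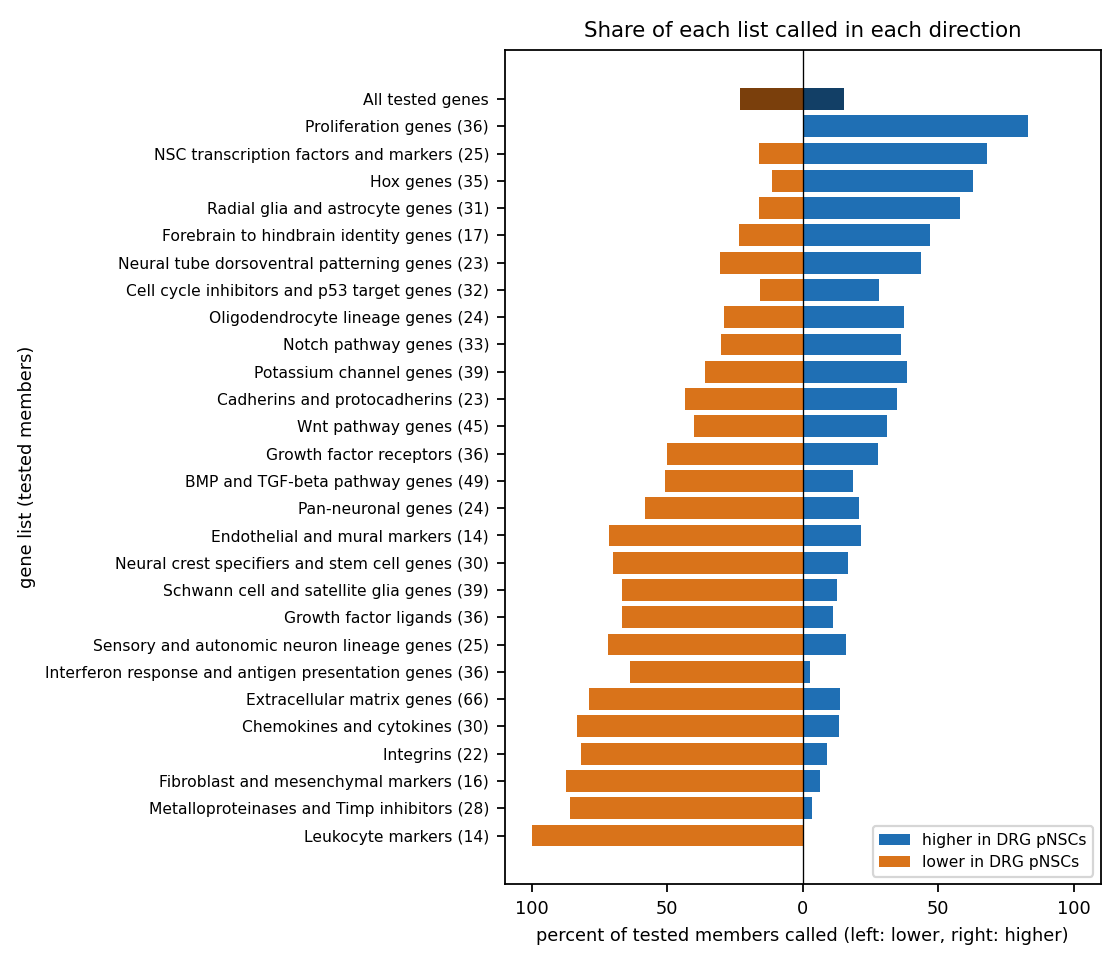
Percent of the tested members of each gene list called higher (blue, to the right) or lower (orange, to the left) in DRG pNSCs, with the number of tested members in brackets and the share of all tested genes at the top (15.1% higher, 23.3% lower). Proliferation, NSC and *Hox* genes lie at the side of higher calls, and leukocyte, metalloproteinase and fibroblast genes at the side of lower calls.

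A set of progenitor genes differed between the groups by less than the fold change limit. *Sox2*, the SoxB1 factor that both neural stem cells and crest glia use, was at 213, 212 and 211 cpm in DRG pNSCs and 239, 238 and 218 cpm in NCSCs, and *Nes*, which encodes the intermediate filament nestin, was at 1666, 1636 and 1634 and 1148, 1251 and 1566 cpm. Neither passed the fold change limit, with log2 fold changes of -0.13 ± 0.04 and 0.32 ± 0.07. The endothelin receptor gene *Ednrb* (271 ± 3.52 against 300.3 ± 51.4 cpm, s.d., n = 3), the proteoglycan NG2 gene *Cspg4* (205 ± 7.84 against 225 ± 17 cpm) and the FGF receptor gene *Fgfr1* (263 ± 2.6 against 234 ± 3.96 cpm) were also not called. Of these 5 genes all but *Ednrb* passed the adjusted p alone, so small differences were measurable, but they stayed under the fold change limit while relatives of these genes described next did not.

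Of 25 tested NSC transcription factors and markers, 17 were higher in DRG pNSCs, 4 were lower and 4 were not called, with a median log2 fold change of 2.81 beside -0.00347 over all tested genes. The SoxB family split. *Sox1* (chromosome 8, 12395295 to 12400126, GRCm38), an early marker of the neural plate, stood at 23.5, 20.3 and 21.3 cpm in the DRG pNSC libraries and 0.142, 0 and 0.301 cpm in the NCSC libraries, a log2 fold change of 7.23 ± 0.22. *Sox3* (a log2 fold change of 3.48 ± 0.05) and *Sox21* (a log2 fold change of 6.85 ± 0.10) were higher too, whereas *Sox2* was not called. The patterning factor *Pax6* was at 34.2, 30.2 and 34.6 cpm against 0.379, 0.388 and 0.181 cpm.

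The glial lineage factors *Olig1* and *Olig2* had log2 fold changes of 4.54 ± 0.04 and 6.37 ± 0.07, and *Olig2* was not at 0 in NCSCs, where it stood at 16.6, 16.7 and 12.5 cpm against 1264, 1286 and 1291 cpm in DRG pNSCs. *Fabp7*, the brain lipid-binding protein of radial glia, was at 3288, 3286 and 3281 cpm against 72.9, 69.8 and 91 cpm, and the glutamate transporter gene *Slc1a3* at 905, 888 and 891 cpm against 5.07, 5.43 and 5.79 cpm. In each of these genes the 3 libraries of a group lay close together and far from those of the other. The 4 members that were lower in DRG pNSCs were *Dach1* (-4.04 ± 0.24), the chromatin protein gene *Hmga2* (-1.13 ± 0.08), *Prom1* (-1.10 ± 0.16) and *Fut4* (-1.02 ± 0.29). *Prom1* and *Fut4* stood under 5 cpm in both groups, and *Fut4* fell short of the fold change limit without DRG pNSC replicate 1 (-0.947), NCSC replicate 2 (-0.956) or NCSC replicate 3 (-0.983).

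**Figure D4:**
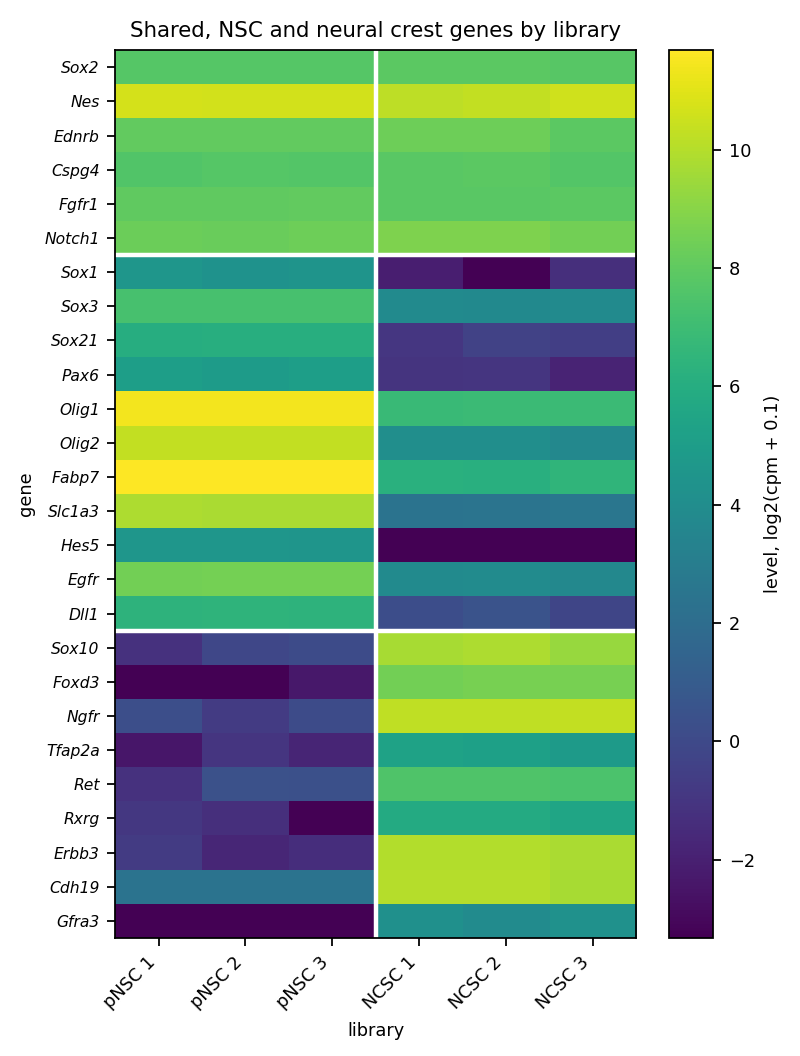
Level (colour, log2 of cpm + 0.1) of 26 genes in each of the 6 libraries, with white lines between genes not called (top), NSC genes (middle) and neural crest and Schwann cell genes (bottom), and between the 3 DRG pNSC and 3 NCSC libraries. Within each gene of the middle block the DRG pNSC libraries are brighter than the NCSC libraries, and in the bottom block the reverse. These blocks show chosen members that ran in these directions, so the pattern follows from the choice. List members that ran the other way, such as *Dach1* and *Sox9*, are not drawn. All genes share the colour scale, and some NSC genes, such as *Fabp7*, are not dark in the NCSC libraries.

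The neural crest list ran the other way. Of 30 tested members 21 were lower in DRG pNSCs, 5 were higher and 4 were not called (median -3.02, or -2.61 with genes at or under 3 counts in a group set to that floor). *Sox10* (chromosome 15, 79154908 to 79165240, GRCm38), the SoxE factor of crest and peripheral glia, was at 0.345, 0.801 and 0.982 cpm in DRG pNSCs and 849, 926 and 668 cpm in NCSCs. *Foxd3*, a forkhead repressor that keeps crest cells undifferentiated, was at 353, 391 and 389 cpm in NCSCs and held 0, 0 and 1 counts in DRG pNSCs, 11970-fold higher in NCSCs with a 95% exact binomial counting interval of 2148 to 472700. *Ngfr* was at 1.12, 0.501 and 0.982 cpm against 1231, 1217 and 1276 cpm. *Tfap2a* (-7.28 ± 0.27) and the GDNF receptor gene *Ret* (-7.68 ± 0.13) were lower as well. The members that were higher in DRG pNSCs were *Sox8*, *Sox9*, *Msx1*, *Pax7* and *Id3*, factors that the dorsal neural tube or its glia also use. The SoxE family was thus divided, with *Sox8* at 279, 273 and 268 cpm and *Sox9* at 158, 153 and 152 cpm in DRG pNSCs, against 4.46, 5.39 and 4.34 and 8.25, 8.0 and 8.8 cpm in NCSCs, opposite to *Sox10*.

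Schwann cell and satellite glia genes followed *Sox10*, with 26 of 39 tested members lower in DRG pNSCs, 5 higher and 8 not called (median -3.81, or -3.37 at the floor). *Erbb3*, the neuregulin receptor of Schwann cell precursors, was at 0.517, 0.20 and 0.295 cpm against 1002, 1008 and 876 cpm, and *Cdh19*, a cadherin of the same cells, at 5.09, 5.21 and 5.11 cpm against 1028, 1035 and 841 cpm. *Gldn*, which encodes gliomedin of the nodes of Ranvier, was at 229, 228 and 203 cpm in NCSCs, and *Gfra3*, the artemin co-receptor, at 18.2, 15.1 and 19 cpm, the latter at 0 counts in every DRG pNSC library. The 5 members that were higher in DRG pNSCs were *Egr1*, *Ptn*, *Kcnj10*, *Glul* and *Pou3f2*, which glia or neural progenitors of the brain also express. *Pou3f2* had a log2 fold change of 1.08 ± 0.07, and of 0.998 without NCSC replicate 3, under the limit.

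Oligodendrocyte genes were mixed, with 9 of 24 tested members higher, 7 lower and 8 not called (median 0.32). The higher members included *Nkx2-2* (34.1, 30.8 and 32.7 against 0.19, 0.34 and 0.0603 cpm), a factor of ventral progenitors and oligodendrocyte precursors, and *Bcas1* (158, 161 and 158 against 1.8, 1.46 and 1.99 cpm), found in early myelinating oligodendrocytes. The lower members included genes that peripheral glia share, such as *Sox10* and *Mbp*. *Pdgfra*, the receptor of oligodendrocyte precursors, was not called, at 14.4 ± 2.82 cpm in DRG pNSCs and 16.7 ± 1.12 cpm in NCSCs (s.d., n = 3).

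Radial glia and astrocyte genes were higher in DRG pNSCs for 18 of 31 tested members, lower for 5 and not called for 8 (median 1.52). *Mlc1*, a membrane protein of astrocyte endfeet, was at 366, 380.2 and 389.7 cpm against 0.332, 0.728 and 0.964 cpm, its partner *Hepacam* at 306, 298 and 309 cpm against 1.61, 1.75 and 1.81 cpm, the FGF receptor *Fgfr3* at 279.5, 290.4 and 289 cpm against 0.237, 0.485 and 1.39 cpm, and the water channel *Aqp4* at 55.1, 47.1 and 51.6 cpm against 0.0474, 0.194 and 0.542 cpm. *Gfap*, the filament of astrocytes that some Schwann cells also make, went the other way, at 1.03, 0.901 and 0.491 cpm in DRG pNSCs and 92.6, 88.2 and 97.9 cpm in NCSCs. *S100b* (-2.40 ± 0.13) and vimentin, *Vim* (-1.76 ± 0.03), were lower in DRG pNSCs too.

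In the Notch pathway 12 of 33 tested genes were higher in DRG pNSCs, 10 were lower and 11 were not called (median -0.25), and the difference lay in which ligands and targets were present. The ligand genes *Dll1* (83.2, 85.9 and 82.5 against 1.09, 1.36 and 0.783 cpm) and *Dll3* (57.6, 55.2 and 55.9 against 0.142, 0.485 and 0.181 cpm) were higher in DRG pNSCs, while *Jag2* (-3.20 ± 0.26) was lower and *Jag1* was just under the limit (log2 fold change -0.94 ± 0.07). Among the receptors *Notch1* and *Notch2* were not called, *Notch3* was higher (1.94 ± 0.05) and *Notch4* lower (-2.53 ± 0.16). The glycosyltransferase gene *Lfng*, which tunes the receptor for its ligands, was at 259, 266 and 275 cpm against 14.2, 15.3 and 15.2 cpm. The nuclear partner *Rbpj* was not called, at 35.8 ± 3.78 and 48.7 ± 2.83 cpm.

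The Notch target genes of the Hes and Hey families did not move together. *Hes5*, the target that keeps neural stem cells undifferentiated, was at 23.2, 23.6 and 22.7 cpm in DRG pNSCs and had no count in any NCSC library, at least 128-fold higher in DRG pNSCs taking 3 counts per library as the floor. *Heyl* was the reverse, at 0.259, 0.10 and 0.589 cpm in DRG pNSCs and 90.3, 94 and 74.1 cpm in NCSCs. *Hes1* was not called (40 ± 2.13 against 61 ± 5.93 cpm), and *Hey1* (1.46 ± 0.08) and *Nrarp* (3.90 ± 0.17) were higher in DRG pNSCs. The window around the start of *Hes5* is shown because this Notch target had no count in 1 of the groups, and that of *Fabp7*, chosen after its values were seen, because this radial glia gene is among the 10 with the largest gain in cpm. Both are RefSeq windows of 250 bases before to 50 bases after the start on GRCm38.p6, plus strand, at chr4:154960673-154960972 for *Hes5* and chr10:57784673-57784972 for *Fabp7*, and capitals mark TGGGAA or its reverse complement TTCCCA, the core letters that RBPJ, the DNA-binding partner of Notch, recognises.
Hes5: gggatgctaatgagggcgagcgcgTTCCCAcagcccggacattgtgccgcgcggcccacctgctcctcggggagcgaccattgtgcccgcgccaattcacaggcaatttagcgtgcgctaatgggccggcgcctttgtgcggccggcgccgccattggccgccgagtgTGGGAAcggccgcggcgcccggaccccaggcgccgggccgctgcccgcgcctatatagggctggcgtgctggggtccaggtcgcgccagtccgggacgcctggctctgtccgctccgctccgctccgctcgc
Fabp7: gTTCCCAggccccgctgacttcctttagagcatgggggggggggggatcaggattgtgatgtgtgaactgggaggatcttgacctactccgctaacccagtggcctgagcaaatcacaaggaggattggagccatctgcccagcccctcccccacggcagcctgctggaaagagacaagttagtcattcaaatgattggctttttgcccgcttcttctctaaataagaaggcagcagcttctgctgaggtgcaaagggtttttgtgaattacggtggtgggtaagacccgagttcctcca
The *Hes5* window holds 2 copies of the letters, 1 on each strand, and both extend to GTGGGAA, while the *Fabp7* window holds 1 copy near its upstream end. Of 32851 windows of this length in the table, 25.6% hold TGGGAA on either strand at least once and 3.79% at least 2 times, and 0.256% hold GTGGGAA at least 2 times. Of the 34 genes of the Notch list 28 have a window in the table and 8 of these hold TGGGAA. The match describes letters and was not tested for binding.

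*Hox* genes, which record the level of the body axis at which a cell arose, were present in both groups. Of 35 tested, 22 were higher in DRG pNSCs, 4 were lower and 9 were not called (median 2.56, or 1.66 at the floor). In *Hoxa*, 9 of 11 tested genes were higher and the cluster summed to 408 to 412 cpm against 18.9 to 23.5 cpm. In *Hoxc*, 6 of 9 were higher, with sums of 97.1 to 99.1 against 23.9 to 25.3 cpm. In *Hoxb*, 3 of 9 were higher, 2 lower and 4 not called, and the sums overlapped, at 88 to 90.5 and 78.6 to 89.1 cpm. In *Hoxd*, 4 of 6 were higher and 1 was lower, with sums of 37.4 to 41.3 against 14.6 to 15.9 cpm.

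*Hoxa5* was at 119, 119 and 114 cpm in DRG pNSCs and 2.37, 1.6 and 1.69 cpm in NCSCs, and *Hoxa9* at 133, 129.9 and 129 cpm against 8.91, 8.15 and 6.75 cpm. *Hoxa2* was at 13.8, 11.9 and 13.5 cpm against 0.0474, 0.631 and 0.241 cpm and *Hoxc8* at 24.9, 27.7 and 26.7 cpm against 2.18, 2.09 and 3.37 cpm. *Hoxb9* ran against them, at 1.64, 1.0 and 1.28 cpm in DRG pNSCs and 25.3, 23.5 and 21 cpm in NCSCs, and *Hoxb7* was lower in DRG pNSCs as well (-1.31 ± 0.14). Among the most posterior genes, *Hoxc12* was at 2.41, 1.8 and 3.14 cpm in DRG pNSCs and at 0 in NCSCs, and *Hoxc13* at 1.98, 2.7 and 1.77 cpm against 3, 0 and 0 counts. *Hoxb13* stood at 0.517, 0.20 and 0.687 cpm in DRG pNSCs and 0 in NCSCs. *Hoxa13*, *Hoxd12* and *Hoxd13* had no count in any of the 6 libraries. Many *Hox* genes overlap a neighbour or an antisense transcript, so the counts of *Hoxa3*, *Hoxa5*, *Hoxa6* and *Hoxa7* in particular cannot be fully told apart.

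The tail pNSC libraries of the same experiment give a second pNSC line beside these values. Over all genes, 2596 of the tested genes were called between DRG and tail pNSCs (18.0%). Of the 35 *Hox* genes tested, 14 were higher in DRG than in tail pNSCs, 10 were lower and 11 were not called. *Hoxb13*, the gene of the tail end of the axis, was at 0.517, 0.20 and 0.687 cpm in DRG pNSCs and 52.6 ± 1.75 cpm (s.d., n = 3) in tail pNSCs. *Hoxc8*, *Hoxc9* and *Hoxc10* were at 0.032 ± 0.0279, 0.561 ± 0.141 and 0.89 ± 0.0735 cpm in tail pNSCs, below both DRG groups. The *Hox* profile of DRG pNSCs therefore differed from that of tail pNSCs as well as from that of NCSCs.

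**Figure D5:**
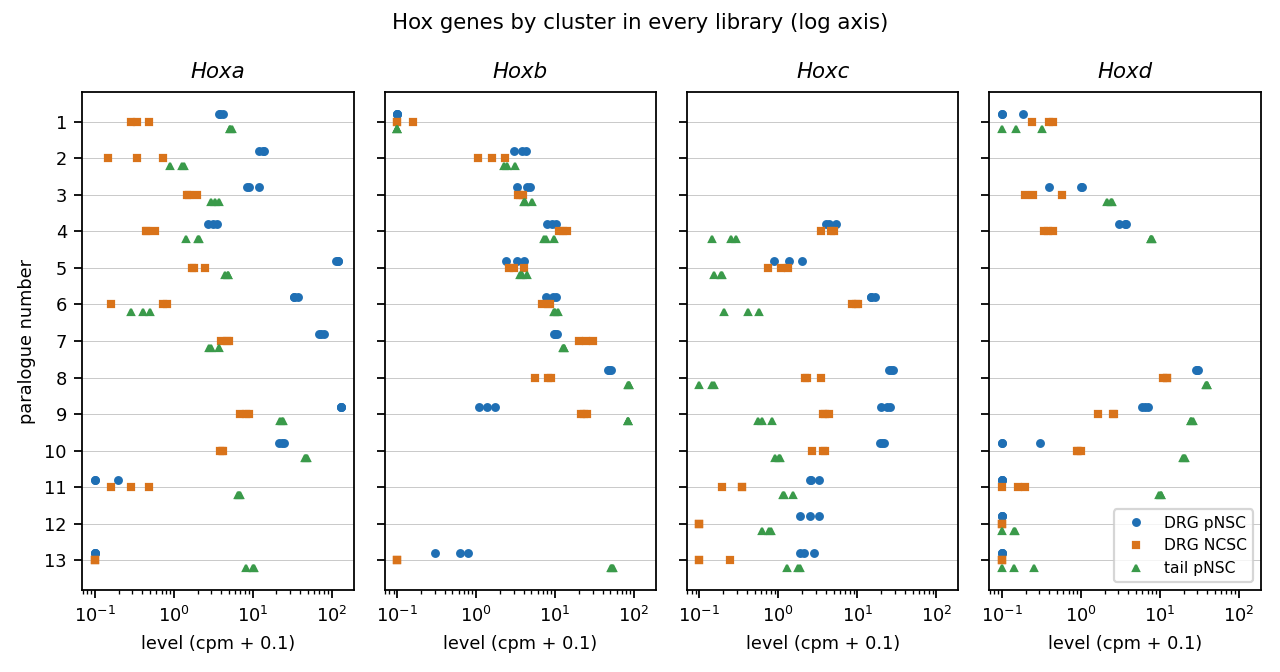
Level (x axis, cpm + 0.1, log axis) of each *Hox* gene by paralogue number (y axis) in the 4 clusters, with 3 libraries each of DRG pNSCs (circles), DRG NCSCs (squares) and tail pNSCs (triangles). DRG pNSCs lie to the right of NCSCs for paralogues 1 to 10 of *Hoxa* and 8 to 13 of *Hoxc*, and tail pNSCs lie to the right of both for *Hoxb13* and *Hoxa13*.

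Genes that pattern the neural tube from dorsal to ventral were higher in DRG pNSCs for 10 of 23 tested, lower for 7 and not called for 6 (median 0.90). *Dbx2*, a factor of the intermediate neural tube, was at 175, 175 and 172 cpm against 0.237, 0.194 and 0.301 cpm, and *Irx5* at 26.2, 30.7 and 27.7 cpm against 0.237, 0.388 and 0.181 cpm. *Nkx6-1* (2.05 ± 0.17), of ventral progenitors, and *Pax7* (6.9, 8.01 and 6.38 against 0, 0 and 0.0603 cpm), of dorsal progenitors, were both higher. *Zic1* (8.58, 9.7 and 9.34 cpm in NCSCs) was the reverse, with 0, 0 and 1 counts in DRG pNSCs. Of 17 tested genes of forebrain to hindbrain identity 8 were higher, 4 lower and 5 not called, with a median log2 fold change of 0, and 9 were at or under the floor of 3 counts in every NCSC library. The count of higher genes fell to 5 with only the 6 DRG libraries in the fit and to 1 among genes with a mean count of at least 100. *Lhx2* was higher (23.1, 24.2 and 21.5 against 0.616, 0.776 and 0.783 cpm).

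Growth factor receptors were lower in DRG pNSCs for 18 of 36 tested members, higher for 10 and not called for 8 (median -0.99), and the split ran within families. In the EGF receptor family *Egfr* (362, 367 and 376 against 14.6, 14.9 and 12.8 cpm) and *Erbb4* (41.7, 38 and 44.3 against 0.0948, 0.291 and 0.663 cpm) were higher in DRG pNSCs, while *Erbb3* and its partner *Erbb2* (-2.28 ± 0.06) were lower. In the FGF receptor family *Fgfr3* and *Fgfr2* (2.51 ± 0.11) were higher and *Fgfr1* was not called. Receptors of the GDNF family were lower for *Ret*, *Gfra1* (-4.50 ± 0.07), *Gfra2* (-2.75 ± 0.06) and *Gfra3*, and *Gfra4* was higher (1.76 ± 0.20). *Pdgfrb*, the PDGF receptor of mesenchymal and mural cells, stood at 147, 153 and 137 cpm in NCSCs and at 0, 0.10 and 0 cpm in DRG pNSCs. *Met*, the hepatocyte growth factor receptor, was at 0.431, 0.401 and 0.687 cpm against 91.4, 90.9 and 80.6 cpm and the neurotrophin receptor *Ntrk2* was higher in DRG pNSCs (2.37 ± 0.05).

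Of 36 tested growth factor ligands 24 were lower in DRG pNSCs, 4 were higher and 8 were not called (median -2.83, or -2.49 at the floor). The GDNF family ligands *Artn* (178, 174 and 168 cpm in NCSCs against 0, 0 and 0.196 cpm) and *Gdnf* (9.86, 10.4 and 7.29 against 0.0862, 0 and 0.0982 cpm) were lower together with their receptors. *Igf1* was at 24.4, 24.3 and 26.5 cpm in NCSCs and at 0 counts in every DRG pNSC library, at least 83.4-fold lower in DRG pNSCs taking 3 counts per library as the floor. The EGF family ligand *Btc* (-7.32 ± 0.18) was lower, and another ligand of the EGF receptor, *Tgfa*, was higher (2.07 ± 0.07). Pleiotrophin, *Ptn*, and *Fgf1* were higher too, at log2 fold changes of 2.29 ± 0.03 and 1.52 ± 0.05.

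BMP and TGF-beta genes were lower in DRG pNSCs for 25 of 49 tested, higher for 9 and not called for 15 (median -1.17). The receptor *Bmpr1b* (47.3, 42.2 and 43.6 against 0.853, 0.679 and 0.723 cpm) and the ligand *Bmp7* (3.36 ± 0.07) were higher. The secreted BMP antagonists parted, with *Chrdl1* higher (4.35 ± 0.13) and *Grem1* at 0 counts in every DRG pNSC library against 14.1, 16 and 14.5 cpm in NCSCs. The TGF-beta target *Tgfbi* was lower (752, 756 and 678 cpm in NCSCs against 0.0862, 0 and 0.295 cpm). Of 45 tested Wnt genes 14 were higher, 18 lower and 13 not called (median -0.50). *Wnt7a* (90.4, 82 and 89.3 against 0.569, 0.485 and 0.542 cpm), a ligand of the developing brain, *Fzd9* (6.89 ± 0.11), *Fzd10* (5.56 ± 0.11) and *Lgr5* (4.30 ± 0.11) were higher. *Nkd2*, a brake on Wnt signalling, was at 445, 459 and 444 cpm in NCSCs against 2.76, 2.8 and 2.75 cpm, and *Wnt16* (28.5, 27.8 and 35.5 cpm) and *Wnt10b* (15.8, 17.4 and 18 cpm) were present in NCSCs and at 0 counts in every DRG pNSC library.

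Extracellular matrix genes were among the most one-sided. Of 66 tested, 52 were lower in DRG pNSCs, 9 were higher and 5 were not called (median -4.23, or -4.15 at the floor), and the list summed to 8064 to 8209 cpm in DRG pNSCs and 52940 to 53610 cpm in NCSCs. The lower genes included basement membrane collagens, with *Col4a1* at 13.6, 14.1 and 11 cpm against 2967, 3027 and 3185 cpm, and interstitial matrix, with *Postn*, periostin, at 0.259, 0.501 and 0 cpm against 4257, 4281 and 3755 cpm and *Col1a2* at 0, 0 and 0.196 cpm against 818, 803 and 996 cpm. *Col6a3*, of type VI collagen, was at 0, 0.20 and 0.0982 cpm against 534, 569 and 509 cpm, and *Spp1*, osteopontin, was at 6.64, 6.31 and 7.46 cpm against 3744, 3656 and 3684 cpm. The 9 higher genes included the brain proteoglycans *Bcan* (756, 783 and 775 against 3.41, 3.83 and 5.3 cpm) and *Ncan* (1089, 1072 and 1079 against 6.45, 6.79 and 9.04 cpm). Another was tenascin R, *Tnr* (4.19 ± 0.09), and these genes make up the lattice around cells of the central nervous system. Elastin, *Eln*, was also among the 9, so they were not all of this kind. *Postn* and the type I collagens are also on the fibroblast list, whose sums are given above.

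Metalloproteinases and their inhibitors were lower in DRG pNSCs for 24 of 28 tested genes (median -4.40, or -4.16 at the floor), and *Timp4* alone was higher (4.89 ± 0.10). *Mmp3*, *Mmp13* and *Mmp10*, which cut matrix proteins, were at 0 counts in every DRG pNSC library and at 372, 356 and 437, at 229, 228 and 229.98 and at 69, 70.1 and 72.4 cpm in the NCSC libraries. Integrins, the receptors for matrix, were lower for 18 of 22 tested genes (median -3.89, or -2.85 at the floor). *Itga8* was at 8.28, 8.41 and 8.54 cpm against 658, 666 and 521 cpm and the laminin receptor subunit *Itgb4* at 0.0862, 0.20 and 0.393 cpm against 51.6, 52.9 and 47.4 cpm, while *Itga9* was higher (2.21 ± 0.07).

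Neuronal genes also separated the groups. Of 25 tested sensory and autonomic lineage genes 18 were lower in DRG pNSCs, 4 were higher and 3 were not called (median -6.26, or -4.39 at the floor). The sodium channel genes *Scn9a* (42.7, 43.9 and 37.5 cpm) and *Scn10a* (22.2, 23.1 and 17.4 cpm) and the capsaicin receptor gene *Trpv1* (13.6, 14.1 and 13.1 cpm), which define pain-sensing neurons, were measured in all NCSC libraries and had no count in any DRG pNSC library. The sensory factor *Isl1* was likewise at 8.15, 9.65 and 8.44 cpm and at 0. *Slc17a6*, the glutamate transporter of sensory neurons, stood at 63.8, 67.6 and 59.7 cpm against 0, *Stmn2*, of growing neurites, at 259, 258 and 249 cpm against 0.172, 0.20 and 0.196 cpm, and the neurofilament gene *Nefl* at 407, 424 and 437 cpm against 1.81, 1.8 and 1.87 cpm. The pan-neuronal list was lower for 14 of 24 tested genes and higher for 5 (median -2.41), among them *Map2* (1792, 1749 and 1721 against 132, 129.7 and 109.6 cpm). Of the 25 tested sensory and autonomic genes, 14 were at or under the floor in every DRG pNSC library and 2 in every NCSC library, and the list summed to 259.6 to 276 cpm in DRG pNSCs against 595 to 608 cpm in NCSCs.

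Chemokines and cytokines were lower in DRG pNSCs for 25 of 30 tested genes and higher for 4 (median -5.28, or -4.20 at the floor), and interferon response and antigen presentation genes for 23 of 36, with 1 higher and 12 not called (median -1.51). *Ccl11* (19.1, 21.1 and 17.1 cpm), *Cxcl1* (17.3, 17 and 14.5 cpm) and the microglial and macrophage receptor *Cx3cr1* (15.9, 19.1 and 16.6 cpm) were at 0 counts in every DRG pNSC library. *Cx3cl1*, the ligand of the last of these, was the reverse, at 225, 226 and 218 cpm in DRG pNSCs and 15.6, 16 and 13.3 cpm in NCSCs. Among interferon-induced genes *Cxcl10* was at 0.0862, 0.501 and 0.196 cpm against 19.9, 19.3 and 19.2 cpm, and *Gbp2* was at 0.517, 0.501 and 0.393 cpm against 33.3, 33.1 and 32.8 cpm. The leukocyte markers given above moved with both lists.

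DRG pNSC libraries held more transcripts of dividing cells. Of 36 proliferation genes 30 were higher, 0 were lower and 6 were not called (median 1.25). The mitotic cyclin *Ccnb1* was at 214, 207 and 197 cpm against 40.4, 39.1 and 38.3 cpm, the mitotic kinase *Plk1* at 144, 147 and 150.5 cpm against 35.5, 38.4 and 34.8 cpm, and the ribonucleotide reductase gene *Rrm2* at 320.1, 312 and 329 cpm against 88.3, 88.5 and 77.9 cpm. *Mki67*, the usual proliferation marker, was at 1060.1, 1061 and 1009.5 cpm against 442, 441 and 357 cpm. Both groups held these transcripts. The libraries of the groups did not overlap for any of the 4 genes, which was also so for 11733 of the 14448 tested genes. Of 32 cell cycle inhibitors and p53 targets 9 were higher, 5 lower and 18 not called (median 0.37); *Ccnd2*, the D-type cyclin of neural progenitors, was higher (2.67 ± 0.04), the inhibitor gene *Cdkn2b* was lower (-1.96 ± 0.10) and *Cdkn1a* was not called (285 ± 6.28 against 191 ± 3.42 cpm, s.d., n = 3).

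Potassium channel genes were divided almost evenly, with 15 of 39 tested genes higher in DRG pNSCs, 14 lower and 10 not called (median 0.53). *Kcnj16* (chromosome 11, 110968033 to 111027968, GRCm38), an inward rectifier of glia, was at 131, 128 and 119.7 cpm in DRG pNSCs and had no count in any NCSC library, at least 698-fold higher in DRG pNSCs taking 3 counts per library as the floor. Its partner *Kcnj10* was at 307, 301 and 312 cpm against 68.9, 69.3 and 51.5 cpm, and the A-type channel *Kcnd2* at 122, 114 and 109.9 cpm against 0.0474, 0.146 and 0.301 cpm. The Shaker-type channels *Kcna1* (36.5, 38 and 26.2 cpm in NCSCs against 0.0862, 0.10 and 0.196 cpm) and *Kcna6* (235, 232 and 254 cpm in NCSCs against 1.98, 2.2 and 1.77 cpm) and the calcium-activated *Kcnn4* (140.4, 143 and 161 against 1.55, 1.6 and 0.884 cpm) were the reverse. Cadherin genes were divided too, 8 of 23 being higher and 10 lower (median -0.22). *Cdh4* was higher (5.24 ± 0.06) and *Cdh22* too (5.30 ± 0.08), and *Cdh19* and *Pcdh20* (-8.31 ± 0.09) were lower.

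Outside the lists, the largest rises among genes at 20 cpm or more in every DRG pNSC library, besides *Kcnj16*, *Hes5*, *Kcnd2*, *Dbx2* and *Mlc1*, included *Omg*, *Fam181a*, *Rbm24*, *Adcyap1r1*, *Lmo3* and *Sall3*. *Adcyap1r1*, the receptor of the peptide PACAP, was at 624, 632 and 648 cpm against 0.616, 1.02 and 1.93 cpm, while *Adcyap1*, which encodes the peptide, was among the largest falls, at 0 counts in every DRG pNSC library and 99.97, 98.2 and 103 cpm in NCSCs. *Omg*, the oligodendrocyte myelin glycoprotein, lies within an intron of *Nf1*, so its counts are uncertain. The largest falls further included *Crym*, *Gzmb*, *Pirt*, *Sncg* and *Entpd2*, all at 0 counts in every DRG pNSC library. *Gzmb*, granzyme B of cytotoxic lymphocytes, stood at 196, 199 and 156 cpm in NCSCs, and *Pirt*, a regulator of *Trpv1* channels in sensory neurons, at 96.3, 99.4 and 85.5 cpm.

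By difference in mean cpm, the 10 genes with the largest gain in DRG pNSCs were *Ckb*, *mt-Cytb*, *Serpine2*, *Fabp7*, *Olig1*, *Scd2*, *Ptprz1*, *Map2*, *Olig2* and *Ptn*. *Ckb*, the brain creatine kinase, was at 6605, 6674 and 6708 cpm against 351, 357 and 437 cpm. *mt-Cytb* was at 7333, 7267 and 7233 cpm against 3685, 4136 and 1728 cpm, with NCSC replicate 3 the lowest, and without that library its log2 fold change was 0.89, under the limit, so the call rests on it. The 10 genes with the largest difference the other way were *Vim*, *Col18a1*, *Postn*, *Sparc*, *Spp1*, *Col4a1*, *Col5a2*, *Igfbp5*, *Hspg2* and *Col4a2*, of which all but *Vim* and the IGF-binding protein gene *Igfbp5* belong to the matrix list.

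Genes at 3 counts or fewer in each library of a group and at 20 cpm or more in each library of the other numbered 11 for DRG pNSCs and 107 for NCSCs, a description with no test. The limit of 3 counts was easier to meet in the shallower DRG pNSC libraries, at 0.259 to 0.3 cpm against 0.142 to 0.181 cpm. This count was not repeated on thinned libraries. Those of DRG pNSCs were *Btbd17*, *Cacng8*, *Fam181a*, *Grm3*, *Hes5*, *Kcnj16*, *Lmo3*, *Omg*, *Pantr1*, *Rbm24* and *Slc39a12*. Of these, 8 were at 20 cpm or more in every tail pNSC library too, and 10 in every Wnt1Cre-mTmG brain NSC library. Of the 107 genes of NCSCs, 4 reached that level in tail pNSCs and 0 in brain NSCs. They included 7 matrix genes, 6 leukocyte markers and 4 neuronal genes of the lists.

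The labels give no sex, and genes of the sex chromosomes were read in every library. *Xist*, transcribed from the inactive X chromosome of female cells, was at 145, 149 and 149 cpm in the DRG pNSC libraries and 339, 327 and 293 cpm in the NCSC libraries. The Y-linked gene *Kdm5d* was at 115, 104 and 106 cpm and 20.9, 22 and 19 cpm, *Eif2s3y* at 115, 109 and 105 and 33.1, 32.2 and 31.1 cpm and *Ddx3y* at 119, 114 and 104 and 69.2, 61.9 and 72.9 cpm. Each of the 6 libraries thus held both *Xist* and Y-linked transcripts, with more of the latter and less of the former in DRG pNSCs. In the same experiment *Xist* averaged 1168 ± 49.1 cpm in tail pNSCs and 0.0944 ± 0.0988 cpm in brain NSCs (s.d., n = 3). The part of sex in the other results was not tested.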

How the data were processed

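RNA was measured by single-end sequencing of poly(A)-selected libraries, and per the study's methods the authors aligned reads to GRCm38 with HISAT2 and deposited whole-number counts of reads per gene. Strand-specific counting is not given in the sources used here. Counts of the 28244 genes were taken as deposited. edgeR 4.0.16 (R 4.3.3) was fitted with TMM scaling to the 12 libraries of DRG pNSCs, DRG NCSCs, tail pNSCs and brain NSCs (3 each), which share an estimate of the spread. Genes passed at a minimum count of 10 and a total of 15 (filterByExpr). The quasi-likelihood test was two-sided, and a call needed a Benjamini-Hochberg adjusted p under 0.05 with a log2 fold change of 1 or more in size. A count of 3 per library was the floor for levels. Intervals and floors cover counting error only.

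The members and gene lists were chosen with earlier results of these data known, so list counts describe and are no independent support. Named genes were up to 4 of each list in each direction by fold change with at least 5 cpm in the higher group, the 12 largest rises and falls at 20 cpm or more, the 10 largest differences in cpm each way, and members that did not pass. Named outside this rule after their values were seen were *Sox3*, *Sox21*, *Pax6*, *Prom1*, *Fut4*, *Tfap2a*, *Ret*, *Pou3f2*, *Notch3*, *Hey1*, *Nrarp*, *Hoxa3*, *Hoxa9*, *Hoxb13*, *Hoxc8*, *Hoxc9*, *Hoxc10*, *Hoxc12*, *Hoxc13*, *Nkx6-1*, *Erbb2*, *Gfra1*, *Gfra2*, *Gfra4*, *Met*, *Mki67*, *Lifr*, *Cntfr*, *Vegfa* and the genes listed at 3 counts or fewer in a group. Positions are of GENCODE vM21. Of the genes named, these overlap another tested gene and are uncertain to that extent: *Ccnd2*, *Col18a1*, *Col4a1*, *Col4a2*, *Cx3cr1*, *Cxcl10*, *Dll1*, *Entpd2*, *Erbb2*, *Fgf1*, *Fgfr2*, *Fgfr3*, *Gadd45a*, *Hmga2*, *Hoxa3*, *Hoxa5*, *Hoxa6*, *Hoxa7*, *Hoxc10*, *Hoxc8*, *Hoxc9*, *Itga8*, *Lgr5*, *Lmo3*, *Mbp*, *Nefl*, *Nkx2-2*, *Omg*, *S100b*, *Sox1*, *Sox2*, *Sox8*, *Timp4*, *Zic1*.

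Alternatives were DESeq2 1.42.0, upper-quartile and DESeq2 scaling within edgeR, no count filter or a mean count of at least 100, no fold change limit or a test against it (glmTreat), the 6 DRG libraries or all 28, thinned libraries, a replicate block and leaving out each replicate. The scripts were tested on simulated data. Some genes that the rule would name are not reported here.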

Additional observations from a re-analysis of the deposited data

Results flagged for a closer look

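For a few of the genes described above DRG pNSCs and tail pNSCs differed from the NCSCs in opposite directions. Both comparisons use the same 3 NCSC libraries, so the values of each group and the direct test of DRG against tail pNSCs (edgeR, all past both thresholds) are given side by side. *Hoxb9* stood at 1.31 ± 0.32 cpm in DRG pNSCs, 23.3 ± 2.15 cpm in NCSCs and 83 ± 0.122 cpm in tail pNSCs (s.d., n = 3), and DRG minus tail was -5.96 ± 0.12 on the log2 scale. *Hoxc8*, *Hoxc9* and *Hoxc10* lay the other way, above NCSCs in DRG pNSCs and below them in tail pNSCs, with differences between DRG and tail pNSCs of 9.38 ± 0.28, 5.36 ± 0.18 and 4.51 ± 0.16. In tail pNSCs *Hoxc8* lay under the floor of 3 counts, which came to 0.134 to 0.154 cpm there. The size of its difference is therefore less certain than the ± shows. *Prom1*, which encodes CD133 of many stem cells, was at 1.77 ± 0.202 cpm in DRG pNSCs, 3.81 ± 0.334 cpm in NCSCs and 15.6 ± 0.562 cpm in tail pNSCs, a difference of -3.14 ± 0.13 between DRG and tail. *Vegfa*, a growth factor for vessels and neural cells, was at 19.1 ± 0.801, 64.5 ± 1.67 and 242 ± 4.58 cpm, and DRG minus tail was -3.66 ± 0.06. *Xist* was at 148 ± 2.51, 319 ± 23.7 and 1168 ± 49.1 cpm in the same order, and DRG minus tail was -2.98 ± 0.06. Groups of 3 libraries are too small for a test of a single outlying library.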

How the results depend on the processing

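No direction of a call between DRG pNSCs and NCSCs reversed under any alternative run. The 5540 calls became 11903 (5898 higher, 6005 lower) with no fold change limit and 3291 (1363 and 1928) over genes with a mean count of at least 100, where fewer genes were tested; all other settings gave 4775 (glmTreat) to 6514 (no filter on low counts), DESeq2 giving 5484. Leaving out each replicate in turn gave 5448 to 5775 calls, 2160 to 2243 higher and 3265 to 3542 lower. Without the fold change limit 9417 genes were called between DRG and tail pNSCs, and the list genes called, 585 in all, numbered 389 at a mean count of at least 100. Genes at 3 counts or fewer in a group numbered 31 for DRG pNSCs and 305 for NCSCs at 5 cpm in the other, and 3 and 50 at 50 cpm; leaving out each replicate gave 11 to 15 and 108 to 122. Of 952 list counts under alternatives, 38 moved by over 1.5 times. Of 3373 values of single genes, 14 lost the call, for *Prom1*, *Fut4*, *Pou3f2*, *mt-Cytb* and *Cntfr*, and 12 gained one, all without the fold change limit except 1 for *Jag1* at a mean count of at least 100; the cause was not tested. The replicate numbers share no deviation between the groups (correlations of -0.0124 to 0.00696 over all 9 pairs, and not every library correlated best with its own number), and a replicate block gave 5536 calls. The smaller totals of the DRG pNSC libraries limit what can be called absent there to the floors given above.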

Other observations

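*Lifr* and *Cntfr*, which encode receptors for LIF and CNTF, cytokines that drive astrocyte formation, were higher in DRG pNSCs, at 92, 101 and 93.9 cpm against 41.4, 41.5 and 39.4 cpm and 25.4, 23.4 and 22.3 cpm against 12.4, 11.5 and 9.16 cpm, although *Cntfr* fell under the fold change limit without NCSC replicate 3 (log2 fold change 0.988). The VEGF receptor gene *Flt1* was at 20.1, 20.9 and 20.1 cpm in DRG pNSCs and 5.88, 5.05 and 5.73 cpm in NCSCs, while *Vegfa*, which encodes its ligand, was at 18.6, 20.03 and 18.7 cpm against 62.7, 66 and 64.7 cpm. *Cxcr4* and *Ackr3*, which encode the receptors for the chemokine CXCL12, were higher in DRG pNSCs (1.21 ± 0.13 and 1.45 ± 0.16), unlike most of the chemokine list. The genes of this paragraph were picked after their values were seen.

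Of the 32 cell cycle inhibitors and p53 targets, 28.1% were higher and 15.6% lower in DRG pNSCs. Over all tested genes these shares were 15.1% and 23.3%, and 18 of the 32 were not called. Some of the largest changes on the list are given here, and they went both ways. *Eda2r* was at 144, 141 and 137 cpm in DRG pNSCs against 21.4, 23.9 and 15.4 cpm, and *Trp53inp1* and *Btg2* were higher too (1.64 ± 0.05 and 1.51 ± 0.05), whereas *Gadd45a* was at 6.04, 6.01 and 7.56 cpm against 74.5, 71.6 and 94.9 cpm. Tail pNSCs held *Eda2r* at 55.8 ± 1.61 cpm and brain NSCs at 129.6 ± 6.98 cpm (s.d., n = 3).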
